A study of Homo sapiens with 12 samples.

Results

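Olfactory receptor genes and pseudogenes that carried H3K9me3 in 293T cells are described here, in wild-type (WT) cells and in cells with a knockout (KO) of SMARCA3. Members were the genes on chromosomes 1 to 22 to which the authors assigned a peak in either genotype and whose symbol has the form of an olfactory receptor name, such as OR2F1 or OR7E16P. There were 48 members among 9261 genes named in the lists, 25 named as genes and 23 named as pseudogenes by a final P. They held 101 of 112068 peaks, and 28 further intergenic peaks lay between members less than 200 kb apart.

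293T cells are an embryonic kidney line that carries the SV40 large T antigen. H3K9me3 is trimethylation of lysine 9 of histone H3, and SMARCA3, now named HLTF, is a DNA translocase with a RING finger that the series title presents as a histone H3 ubiquitin ligase. Chromatin was precipitated with an anti-H3K9me3 antibody and sequenced beside input, with 3 ChIP and 3 input libraries per genotype (12 in all). The groups used are untreated WT cells and SMARCA3 KO cells of the same line. Whether the KO cells were 1 clone or a pool is not stated in the labels.

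The deposited data are 2 peak lists, 1 per genotype, with no column per library. Read depth is therefore unknown here, the spread between cultures cannot be measured and the genotypes were compared without a p-value. Every interval of a share or of a ratio of peaks is a 95% interval for counting error only. HLTF itself had 0 assigned peaks in both lists. Peaks hold no expression values, so the knockout and the identity of the cells were left unchecked here.

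Olfactory receptors are G-protein-coupled receptors of the sensory neurons of the nose, encoded by a very large family of short genes in clusters on many chromosomes. Class I receptors sit together on the short arm of chromosome 11, and class II receptors make up the other clusters. Many family members have lost their reading frame, among them nearly all of the OR7E subfamily, which spread by segmental duplication. In a sensory neuron 1 receptor allele is transcribed while the others are held in heterochromatin marked by H3K9me3. Kidney-derived cells are not known for that system of choice.

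Members with a peak were more numerous in the KO list. A WT peak was assigned to 28 members and a KO peak to 43. Both lists held a peak at 23 members, the KO list alone at 20 (41.7%, Wilson interval 28.8 to 55.7) and the WT list alone at 5 (10.4%). Over all 8909 genes named on chromosomes 1 to 22, 24.1% had a peak in KO alone and 5.7% in WT alone. Many members are short. Length here is that of the files' spans, which differ from RefSeq at several members. OR5AH1P and OR7E14P counted as over 5 kb though short in RefSeq, and OR3A1 and OR7E163P the reverse. Among the 1880 named genes of at most 5 kb, 41.5% had a peak in KO alone and 9.20% in WT alone, beside 44.8% and 13.8% of the 29 members of that length. For members of that length the KO-alone share was near that of other short genes. The 19 members over 5 kb had 36.8% in KO alone (19.1 to 59.0), beside 19.4% of all genes over 5 kb. With only peaks at or above the pooled median fold, the KO list alone held 11 members and the WT list alone 7, with lists of equal length 16 and 10, and by overlap with the RefSeq gene body 6 and 2.

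The number of peaks at members followed the lists as a whole. Members held 42 WT and 59 KO peaks, a ratio of 1.40 (0.948 to 2.08), beside 1.44 (1.42 to 1.46) over all peaks of chromosomes 1 to 22. Bases in these peaks came to 30062 in the WT list and 45974 in the KO list. Their ratio was 1.53, beside 1.65 overall. Of the 23 members in both lists, 14 had more bases in KO and 9 had fewer, a share of 60.9% with more, where the background was 79.9% of genes named in both lists. The highest fold enrichment at these 23 was larger in KO at 10 and larger in WT at 13, with a median KO minus WT difference of -0.039 fold units. Fold enrichment is the authors' value for a peak, read here as ChIP signal over background.

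Positions in the lists overlapped less at KO peaks than at WT peaks. Of the WT member peaks 76.2% met a KO peak by at least 1 bp, beside 81.6% of all WT peaks. Of the KO member peaks 42.4% met a WT peak (30.6 to 55.1), beside 49.7% of all KO peaks. None of the 26 peaks at the 20 KO-alone members met a WT peak of any annotation, and the nearest WT peak lay between 958 and 143271 bp away. Of the 5 WT-alone members, OR7M1P had a peak that met a KO peak assigned to the neighbouring gene SCART1, so 4 were WT-alone by position.

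KO-alone members mostly carried a single narrow peak. At 19 of the 20 there was 1 peak, and at 12 the widest peak was under 350 bp, close to the narrowest peak of the whole KO list at 271 bp. The 34 KO member peaks that met no WT peak had a median width of 322.5 bp, and 61.8% of them were under 350 bp, beside 36.4% of all such KO peaks. OR5AH1P alone gave 7 of the 34. In the WT list it was the other way, with 30.0% of the 10 member peaks that met no KO peak under 350 bp, beside 51.1% of all such WT peaks. Widths were not compared with those at other short genes. At 6 KO-alone members the peak was 500 bp or wider. These were OR8A2P with 1384 bases, OR7E16P with 1232, OR4E1 with 812, OR11H7 with 706, OR10AD1 with 703 and OR7E19P with 515. The highest fold at a KO-alone member ranged from 2.89 at OR7E14P to 4.90 at OR7E16P. It reached 3.69, the pooled median fold of both lists, at 9 of the 20.

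**Figure D1:**
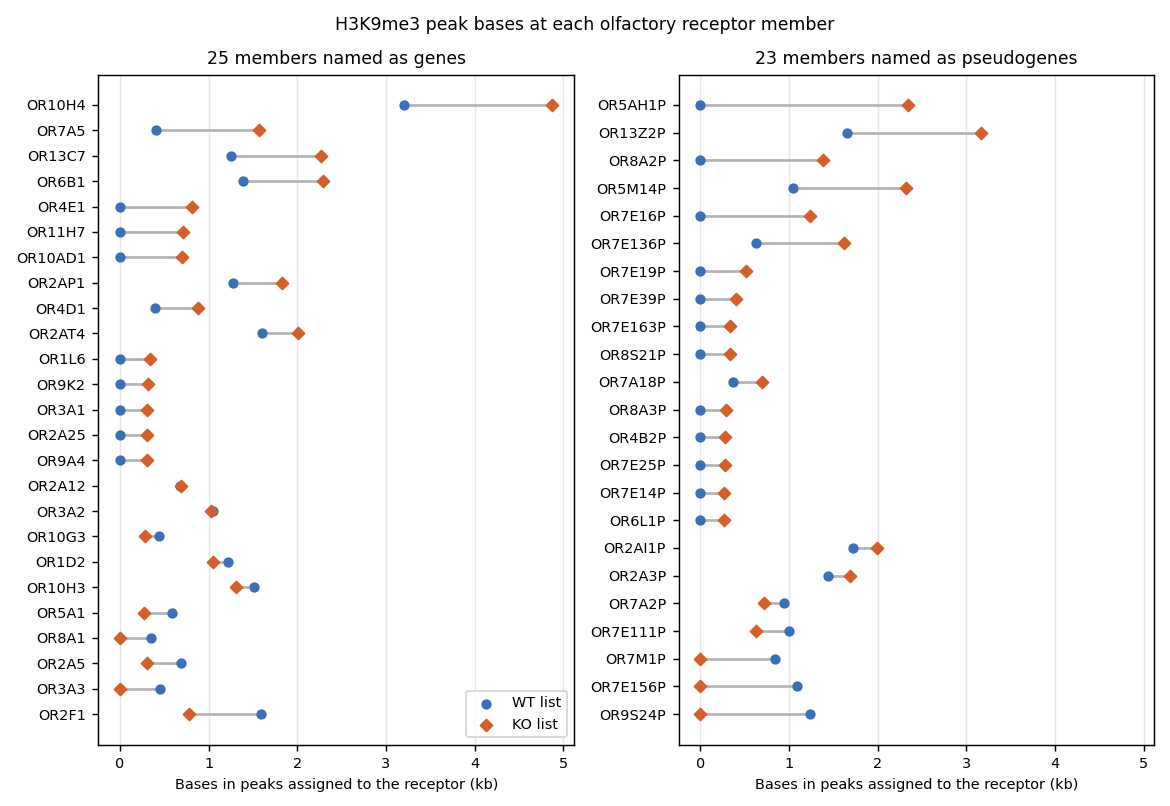
Bases in assigned peaks (x axis, kb) at each of the 48 members, with members named as genes on the left and pseudogenes on the right. Circles are the WT list, diamonds the KO list and lines join the 2 values of a member. The largest KO value is 4879 bases at OR10H4, and most KO-alone members lie below 1 kb.

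Members named as genes and those named as pseudogenes had different counts. The 25 genes held 28 WT and 31 KO peaks, a ratio of 1.11 (0.668 to 1.84), and 18073 and 25204 bases. The 23 pseudogenes held 14 WT and 28 KO peaks, a ratio of 2.00 (1.06 to 3.76), and 11989 and 20770 bases. Among genes, the KO list alone had 8, the WT list alone had 2 and 15 were shared, while the pseudogenes gave 12, 3 and 8. The KO-alone share was 32.0% of genes (17.2 to 51.6) and 52.2% of pseudogenes (33.0 to 70.8). Beside these, 16.5% of all protein-coding genes named in the lists had a peak in KO alone and 4.69% in WT alone. For all named genes of at most 5 kb the shares were 41.5% and 9.20%. The intervals of the 2 ratios overlap, and 7 of the 28 KO peaks at pseudogenes belonged to OR5AH1P. Without it the pseudogenes held 14 and 21 peaks, a ratio of 1.5 (0.772 to 2.91), and all members 42 and 52 peaks, a ratio of 1.24. KO pseudogene peaks met a WT peak in 28.6% of cases (15.3 to 47.1) and KO gene peaks in 54.8% (37.8 to 70.8). Without OR5AH1P the pseudogene share was 38.1% (20.8 to 59.1).

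OR5AH1P, a pseudogene on chromosome 19, had 0 WT and 7 KO peaks, with 2346 KO bases and a highest fold of 4.21. The files give it a span of chromosome 19 from 56690686 to 56761215, in a zinc finger region where ZNF835 is 89.1 kb away. The RefSeq body is far shorter, from 56760865 to 56761233, and none of the 7 peaks meets it. The peaks lay 36940 to 44255 bp from the nearest WT peak. Whole chromosome 19 went from 2298 to 4789 peaks, a ratio of 2.08 (1.98 to 2.19), and the 9 members on it from 10 to 20 peaks. Without OR5AH1P these were 10 and 13 peaks, a ratio of 1.30 (0.583 to 2.90). The 39 members elsewhere held 32 and 39 peaks, a ratio of 1.22 (0.767 to 1.94).

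Few receptors of the genome had an assigned peak. RefSeq lists 853 olfactory receptor genes and pseudogenes on chromosomes 1 to 22, and 28 of them (3.28%, 2.28 to 4.70) had an assigned WT peak and 43 (5.04%, 3.76 to 6.72) a KO peak. Of the 389 protein-coding receptors, 4.11% had a WT and 5.40% a KO peak. Protein-coding genes in general had 20.1% and 23%, but their median length is 24.5 kb, while protein-coding receptors have a median of 3.0 kb. Protein-coding genes of at most 5 kb had 1.66% and 2.30%. The 389 receptors were not limited to that length, and only 6 of the 23 coding members are that short by RefSeq. These shares are therefore not matched for length. Of the 464 receptor pseudogenes, 2.59% had a WT and 4.74% a KO peak, beside 3.26% and 5.05% of all 15521 annotated pseudogenes. Counted by position and not by assignment, 5.74% of the 853 had a WT peak within 3 kb of the RefSeq body and 7.97% a KO peak.

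No class I receptor was a member. The 103 class I genes and pseudogenes had 0 assigned peaks in both lists, and by the limit of 3 counts 0 of 103 allows a share of up to 2.91%. KO peaks did fall in the RefSeq bodies of 2 class I genes, OR51B5 with a fold of 2.97, where the files assign the peak to the globin gene HBE1, and OR56A3 with a fold of 3.51 in a peak called intergenic. No WT peak lay within 3 kb of either.

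The share with a peak differed by chromosome. Chromosome 11, with 376 receptors, had 3 with a WT and 6 with a KO peak (0.798% and 1.60%). Chromosome 1 had 1 of 96 in each list, and chromosome 6 had 0 of 37 in both. Chromosome 7 had 6 and 9 of 36 (16.7% and 25%), chromosome 17 had 4 and 4 of 20, and chromosome 19 had 5 and 9 of 42 (11.9% and 21.4%). Receptors within 500 kb of a zinc finger gene, the neighbours best known for H3K9me3, numbered 210, of which 7 (3.33%) had a WT and 14 (6.67%) a KO peak. The other 643 had 21 (3.27%) and 29 (4.51%). Off chromosome 19, the receptors near a zinc finger gene numbered 178, of which 4 (2.25%) had a WT and 7 (3.93%) a KO peak.

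**Figure D2:**
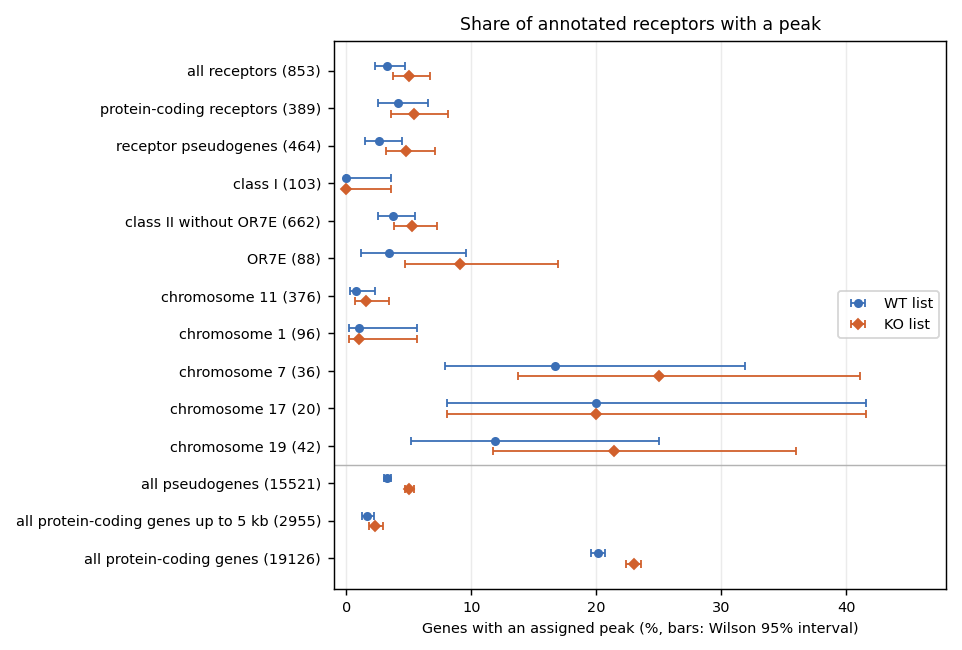
Share of annotated genes with an assigned peak (x axis, percent) in the WT list (circles) and the KO list (diamonds), with Wilson 95% intervals and the number of genes in parentheses. Receptors are above the line and other genes below it. Chromosomes 7, 17 and 19 lie highest among receptor sets, and class I stands at 0.

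The largest group of members was on chromosome 7, where OR2F1, OR6B1, OR2A5, OR2A25, OR2A12 and OR2A3P lie from 143958963 to 144158905 (hg38). Together they held 10 WT and 6 KO peaks but similar bases, 5786 and 6055. In the window reaching 1 Mb to either side, peaks numbered 49 in WT and 66 in KO. The window ratio was 1.35 (0.933 to 1.95), an interval that holds 1, beside 1.68 (1.60 to 1.76) for all peaks of chromosome 7. The lower KO count at members includes OR6B1, where 2 WT peaks met 1 wider KO peak. These counts do not set the members apart from their surroundings.

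OR2F1 (ENSG00000213215) had 4 WT peaks and 1 KO peak, with 1595 and 779 bases. Its single KO peak, from 143971739 to 143972517, had the highest fold of any member peak at 6.68 and met a WT peak of fold 4.57. The other 3 WT peaks had folds of 3.53 to 3.99 and met no KO peak, the nearest being 4481 to 6294 bp away. All 5 peaks fall in the body the files give OR2F1 and beyond the end of its RefSeq body at 143964360.

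OR6B1 had 2 WT peaks, of 804 and 588 bp, where the KO list had 1 peak of 2295 bp over the end of the gene. Its highest fold was 4.40 in WT and 3.10 in KO, so the wider KO call had the lower fold. OR2A12 had nearly the same peak inside the gene, 673 bp with a fold of 5.27 in WT and 686 bp with 5.26 in KO. OR2A3P, a pseudogene upstream of which both lists had a peak, was as similar, with 1436 and 1690 bp and folds of 5.03 and 5.05. OR2A5 had 2 and 1 peaks over 690 and 304 bases, and OR2A25 had a KO peak of 301 bp with a fold of 3.20, 13560 bp from a WT peak. The OR2A subfamily as a whole held 4 peaks in each list.

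On chromosome 17, OR1D2, OR3A2, OR3A1 and OR3A3 lie from 3088484 to 3421533, and they held 4 WT and 5 KO peaks over 2712 and 2375 bases. OR1D2, known as a receptor for the floral odorant bourgeonal, had 1 peak in each list at the same place, 1218 bp with a fold of 4.33 in WT and 1043 bp with 2.82 in KO. OR3A2 had 2 and 3 peaks over 1046 and 1026 bases along a body of the files from 3278775 to 3386293. Only 1 pair of its peaks met, with folds of 2.35 in WT and 4.38 in KO. OR3A1, a receptor for helional that lies within that span, had a KO peak of 306 bp alone, and OR3A3 a WT peak of 448 bp alone with a fold of 4.16. In the window reaching 1 Mb to either side, peaks numbered 28 and 21 in the WT and KO lists, a ratio of 0.750 (0.429 to 1.31).

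On chromosome 19, OR7A5, OR7A2P and OR7A18P lie from 14824251 to 14887115, with 4 WT and 6 KO peaks over 1721 and 2991 bases. OR7A5 had 1 WT peak of 404 bp and 4 KO peaks of 275 to 494 bp, with folds of 4.32 in WT and 3.28 to 3.97 in KO. The WT peak met the KO peak at the far end of the gene, and the other 3 KO peaks met none. That pair and the KO peak of 275 bp lie outside the RefSeq body of OR7A5. All of these OR7A5 peaks also lie within the RefSeq body of the coding receptor OR7C1. OR7A2P had overlapping peaks over its start, 585 bp in WT and 719 bp in KO, and a second WT peak of 364 bp. OR7A18P had 368 and 701 bp in overlapping peaks upstream, with folds of 3.53 and 3.20.

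**Figure D3:**
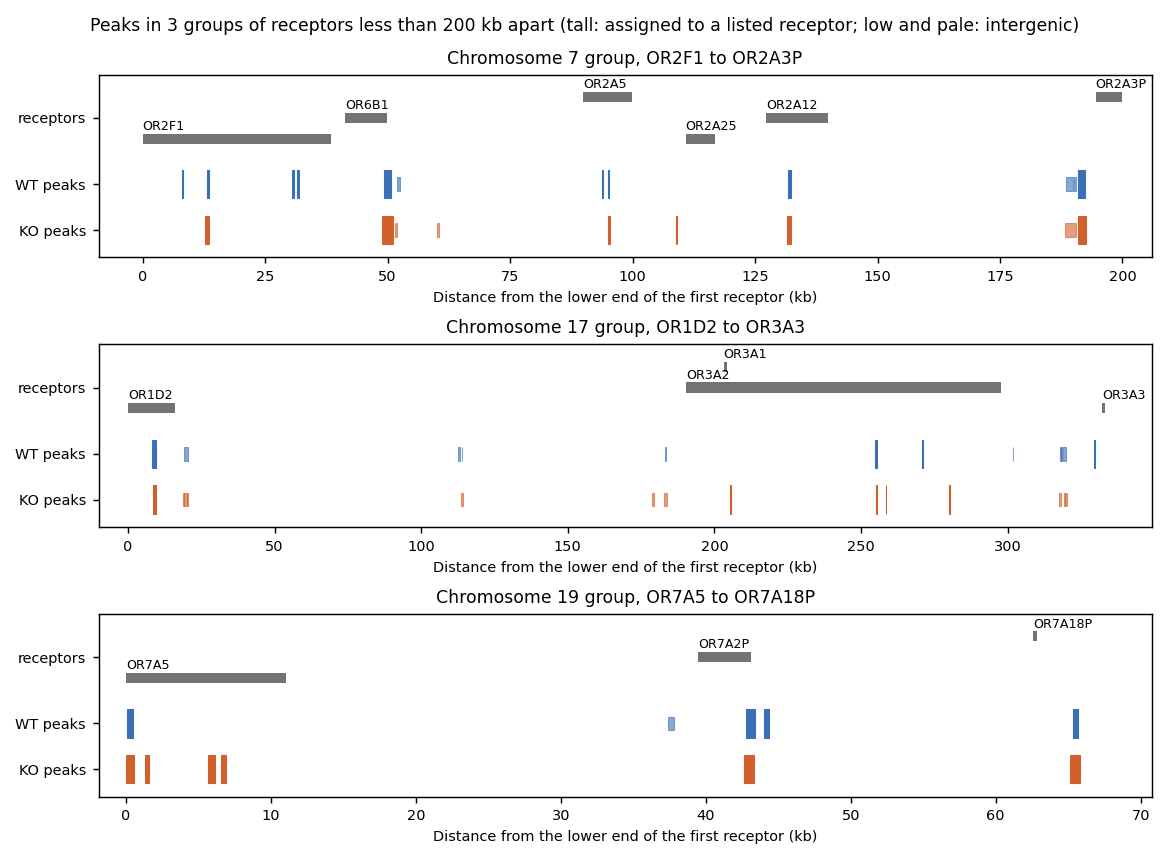
Positions of peaks in the chromosome 7, 17 and 19 (OR7A) groups, as distance in kb from the lower end of the first receptor (x axis). Grey bars are receptor spans from the files, and tall blue and orange bars are WT and KO peaks assigned to them. Pale low bars are intergenic peaks, and the outline widens the narrowest peaks slightly. OR2F1 shows 4 WT peaks and 1 KO peak, and OR7A5 shows 1 and 4.

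OR10H3 and OR10H4, both on chromosome 19, were the protein-coding members with peaks within 250 bp of an annotated start. OR10H4 (ENSG00000176231, 15944299 to 15950350) held the most peak bases of any member in both lists, 3204 in WT and 4879 in KO. It had 4 WT peaks of 349, 807, 1070 and 978 bp, and in KO the first pair fell within 1 peak of 2411 bp and the second pair within 1 peak of 2468 bp. Folds were 3.23 to 4.87 in WT, and 5.05 and 6.03 in KO. OR10H3 (15741393 to 15742343) had 2 peaks in each list, which met pairwise, with 1513 and 1304 bases and highest folds of 4.32 and 4.28. The members OR10H3 and OR10H4 had the same 2 sites marked in each genotype, with more bases in KO at OR10H4 and fewer at OR10H3.

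The OR7E pseudogenes made up 9 members, 6 of them in KO alone, 2 in both lists and 1 in WT alone. The interval of the KO-alone share, 66.7% (35.4 to 87.9), includes the 41.5% of all named genes of at most 5 kb. The 9 members held 3 WT and 10 KO peaks over 2719 and 5282 bases, a ratio of peaks of 3.33 (0.990 to 11.2). Against the 88 annotated OR7E entries this is 3 with a WT peak (3.41%) and 8 with a KO peak (9.09%). OR7E16P, OR7E25P and OR7E19P lie together on chromosome 19 from 9191286 to 9268819 and had 1 KO peak each, of 1232, 274 and 515 bp with folds of 4.90, 3.59 and 3.26. The OR7E16P peak overlaps one end of the RefSeq body of the coding gene OR7D2 and does not meet that of OR7E16P. ZNF317 or ZNF699 is within 40.8 kb of each. The window reaching 1 Mb to either side held 113 WT and 159 KO peaks, a ratio of 1.41 (1.11 to 1.79).

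Elsewhere, OR7E136P on chromosome 7 had 1 WT peak of 630 bp with a fold of 3.53 and 2 KO peaks over 1623 bp with a highest fold of 5.21. OR7E39P, beside it, had a KO peak of 398 bp, OR7E163P on chromosome 4 one of 336 bp and OR7E14P on chromosome 11 one of 271 bp. Of the pseudogenes on chromosome 13, OR7E111P had a WT peak of 1001 bp with a fold of 4.78 and 2 KO peaks of 326 and 307 bp with folds of 3.11 and 3.26. That WT peak also met a KO peak of fold 4.88 to which no gene was assigned, so the 2 lists were closer at this position than the assigned peaks show. OR7E156P had a WT peak of 1088 bp alone, with a fold of 2.17. Chromosome 13 as a whole had 3818 WT and 4438 KO peaks, a ratio of 1.16 (1.11 to 1.21).

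The OR8A group on chromosome 11, from 124460534 to 124582942, had no shared peak. OR8A2P had a KO peak of 1384 bp with a fold of 4.57 and its nearest WT peak was 28548 bp away. OR8A3P had a KO peak of 292 bp, and the coding gene OR8A1 a WT peak of 352 bp with a fold of 3.77. The window reaching 1 Mb to either side held 14 and 23 peaks.

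Several members elsewhere had a strong peak in both lists. OR2AI1P on chromosome 5 had the highest WT fold of any member, 6.2, and as high a fold in KO, where a single peak of 1993 bp met WT peaks of 341 and 1385 bp. OR2AP1 on chromosome 12 had folds of 4.16 in WT and 6.21 in KO over 1273 and 1832 bases. OR5M14P on chromosome 4 had 1046 and 2315 bases with folds of 4.56 and 5.29. OR13Z2P on chromosome 1 had 1658 and 3166 bases with folds of 4.56 and 4.47, and its KO peak, the widest of any member, covered the whole pseudogene. OR2AT4 on chromosome 11, a receptor known for its response to a sandalwood odorant in skin cells, had 1598 and 2003 bases with folds of 4.16 and 5.03. OR13C7 on chromosome 9, a pseudogene in RefSeq despite its name, had 1256 and 2272 bases with folds of 4.52 and 4.43. OR4D1 on chromosome 17 had 389 and 879 bases with folds of 4.09 and 4.28, and its KO peak also met a WT peak of fold 4.94 assigned to no gene.

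Weaker shared peaks lay at OR5A1 and OR10G3. OR5A1, the receptor for beta-ionone, had 586 and 271 bases with folds of 3.61 and 3.05, and OR10G3 on chromosome 14 had 436 and 280 bases with folds of 3.39 and 3.29. The coding genes with a KO peak alone outside the groups above were OR9A4 (300 bp, fold 3.51), OR1L6 (337 bp, fold 3.74), OR9K2 (315 bp, fold 3.45), OR10AD1 (703 bp, fold 4.51) and OR4E1 (812 bp, fold 3.90). OR10AD1 had the nearest WT peak of any KO-alone member, 958 bp away and not assigned to it. OR11H7, a receptor linked to isovaleric acid and a pseudogene in RefSeq, had a KO peak of 706 bp over its body with a fold of 4.05. The pseudogenes OR6L1P, OR4B2P and OR8S21P had KO peaks of 271, 277 and 334 bp. Among WT-alone members, OR9S24P on chromosome 2 had 1241 bp with a fold of 4.32 and OR7M1P on chromosome 10 had 846 bp with a fold of 4.64.

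**Figure D4:**
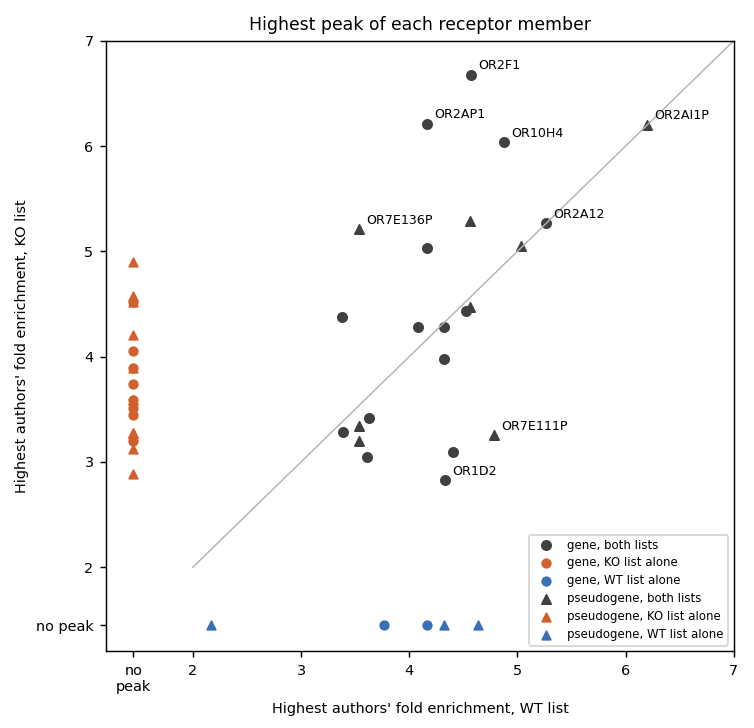
Highest authors' fold enrichment of each member in the WT list (x axis) and the KO list (y axis), with genes as circles and pseudogenes as triangles. Members of 1 list stand on the margin marked no peak, and the line marks equal values. OR2F1, OR2AP1 and OR10H4 lie above the line and OR1D2 below it. Peaks assigned to no gene are not plotted.

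Peaks at pseudogenes lay mostly within reach of a start site, and those at members named as genes less uniformly. The authors' promoter classes, which reach 3 kb from a transcript start, held 64.3% of WT and 74.6% of KO member peaks, beside 16% and 19% of all peaks with a gene. At members named as genes the shares were 46.4% of WT and 64.5% of KO peaks, and at pseudogenes 100% and 85.7%. A short gene has little body outside that reach. Of the member peaks, 22 in WT and 35 in KO lay upstream of the start, and 16 and 21 met the RefSeq gene body. Within 250 bp of an annotated start there were 2 WT peaks, at OR10H3 and OR7A2P, and 5 KO peaks, at those and at OR10H4, OR13Z2P and OR5AH1P.

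RefSeq promoter windows, from 250 bases before to 50 after a start (GRCh38.p14), were given for 311 receptor genes, 18 of them members. OR10H3 and OR10H4 were given no window, although a peak of each list covered the RefSeq start of OR10H4 at 15949008. Of the 323 windows given for the 311 genes, 0 met a WT or KO peak, and by the limit of 3 counts 0 of 323 allows up to 0.929%. Over all 33725 windows of chromosomes 1 to 22, 0.246% met a WT and 0.658% a KO peak, both below that limit, so a difference was not detectable with this number of windows. A KO peak lay within 3 kb of 3.41% of receptor windows and of 5.43% of all windows, and a WT peak within 3 kb of 1.86% and 3.29%.

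Receptor promoters differ in sequence from other promoters. Their median was 1 CpG and 37.7% GC per window, against 14 CpG and 58.7% overall. The homeodomain core TAATTA, the kind of site bound by LHX2, was in 22.3% of receptor windows and 4.91% of all windows. The core CCCNNGGG of Olf1/EBF sites, spelled here with N for any base, was in 8.05% and 19.1%. Both were searched on both strands, each window was counted once per motif, and the motifs may overlap in part. A match is a string of letters and not a bound site.

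The 250 bases before the start are shown for 4 members, chosen because OR2AP1 and OR9K2 had the peaks nearest to a receptor window, OR7A5 had the only CCCNNGGG match among members and OR3A2 the most CpG of any receptor window. Capitals mark TAATTA or CCCNNGGG matches. Sequences are from RefSeq, 5′ to 3′.
OR2AP1, chr12:55572218-55572467, plus strand: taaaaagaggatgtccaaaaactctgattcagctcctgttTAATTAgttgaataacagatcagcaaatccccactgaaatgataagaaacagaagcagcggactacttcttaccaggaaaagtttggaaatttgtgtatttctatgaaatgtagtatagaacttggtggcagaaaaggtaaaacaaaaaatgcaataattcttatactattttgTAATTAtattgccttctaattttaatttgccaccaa
OR9K2, chr12:55126156-55126405, plus strand: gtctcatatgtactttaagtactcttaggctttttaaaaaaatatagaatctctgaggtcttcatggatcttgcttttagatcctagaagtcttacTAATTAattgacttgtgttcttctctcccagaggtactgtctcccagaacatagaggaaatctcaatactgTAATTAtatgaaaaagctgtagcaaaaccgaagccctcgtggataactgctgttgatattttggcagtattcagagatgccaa
OR7A5, chr19:14835186-14835435, minus strand: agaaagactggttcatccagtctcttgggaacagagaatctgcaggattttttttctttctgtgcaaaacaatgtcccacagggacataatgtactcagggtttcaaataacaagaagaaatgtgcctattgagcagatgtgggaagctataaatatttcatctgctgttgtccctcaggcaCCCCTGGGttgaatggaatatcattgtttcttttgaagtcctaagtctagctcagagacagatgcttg
OR3A2, chr17:3386309-3386558, minus strand: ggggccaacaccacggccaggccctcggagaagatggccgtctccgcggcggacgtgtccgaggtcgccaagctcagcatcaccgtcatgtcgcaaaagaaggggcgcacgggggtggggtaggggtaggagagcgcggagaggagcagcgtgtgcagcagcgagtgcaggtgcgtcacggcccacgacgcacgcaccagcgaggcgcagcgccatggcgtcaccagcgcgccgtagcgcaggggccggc

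OR2AP1 and OR9K2 each hold 2 TAATTA matches. The KO peak of OR2AP1 ended 568 bp and its nearest WT peak 636 bp from the window, and the KO peak of OR9K2 ended 668 bp from it, with the nearest WT peak 14374 bp away. OR7A5 holds 1 CCCNNGGG match and 0 CpG in its window, and its nearest KO peak lay 3987 bp away. OR3A2 holds 39 CpG at 71.3% GC and neither motif, with the nearest WT peak at 3561 bp and the nearest KO peak at 17581 bp.

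Between members less than 200 kb apart there were 14 intergenic peaks in each list, over 9730 and 11960 bases, a ratio of peaks of 1.00 (0.484 to 2.06). Most were on chromosome 17, with 8 WT and 9 KO peaks, and chromosome 7 had 3 and 3. Of these peaks 71.4% in WT and 78.6% in KO met a peak of the other list. The strongest was between OR10G3 and OR4E1 on chromosome 14, where a KO peak of 2175 bp with a fold of 5.10 met a WT peak of 1514 bp with a fold of 4.21. On chromosome 10, between OR7M1P and OR6L1P, 11 more peaks in each list were assigned to SCART1 and CYP2E1, with folds of up to 6.13 in WT and 5.46 in KO. The 2 pseudogenes there thus flank a stretch that was marked in both genotypes.

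Whole receptor clusters were examined next, as runs of at least 5 annotated receptors less than 200 kb apart. The 31 clusters hold 691 receptors over 14 Mb, and 167 WT and 211 KO peaks lay in them, a ratio of 1.26 (1.03 to 1.55). Their density was 11.9 peaks per Mb in WT and 15.0 in KO, beside 15.0 and 21.5 over chromosomes 1 to 22. In WT 21 of the 31 clusters and in KO 20 were less dense than their own chromosome. KO peaks outnumbered WT peaks in 14 clusters, WT peaks outnumbered KO peaks in 4, and 13 had equal numbers.

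The largest clusters were sparse in peaks in both genotypes. On chromosome 11 the class I cluster from OR52B4 to OR52W1, 102 receptors over 1.83 Mb, held 8 and 11 peaks, and the cluster from OR4A11P to OR5BP1P, 106 receptors over 1.74 Mb, held 2 and 6. Together the 10 clusters of chromosome 11 had 4.11 peaks per Mb in WT and 6.39 in KO, where the chromosome had 10.8 and 17. The cluster from OR2B11 to OR14I1 near the end of chromosome 1, with 56 receptors, held 1 peak in each list. The cluster from OR2AD1P to OR2H2 on chromosome 6, with 25 receptors, held 0 in both.

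A few smaller clusters were dense in both genotypes. On chromosome 17 the cluster from OR1D5 to OR1E2 had 16 WT and 14 KO peaks, or 43.1 and 37.7 per Mb against 10.4 and 14.7 for the chromosome. On chromosome 9 the cluster from OR1J2 to OR1K1 had 15 peaks in each list, or 42.4 per Mb against 9.98 and 14.2. The chromosome 7 cluster from OR2F2 to OR2A1 had 14 and 13 peaks, or 36.1 and 33.5 per Mb against 16.8 and 28.1. The cluster from OR10AD1 to OR11M1P on chromosome 12 had 14 and 26 peaks, or 32.8 and 61.0 per Mb against 14.9 and 19.7. On chromosome 19 the cluster from OR1M4P to OR7H1P had 14 peaks in each list, or 71.3 per Mb, the densest of the 31 clusters in both lists. Whole chromosome 19 had 39.2 per Mb in WT and 81.7 in KO, so this cluster lay above it in WT and below it in KO. The other chromosome 19 clusters lay below the chromosome in both lists.

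**Figure D5:**
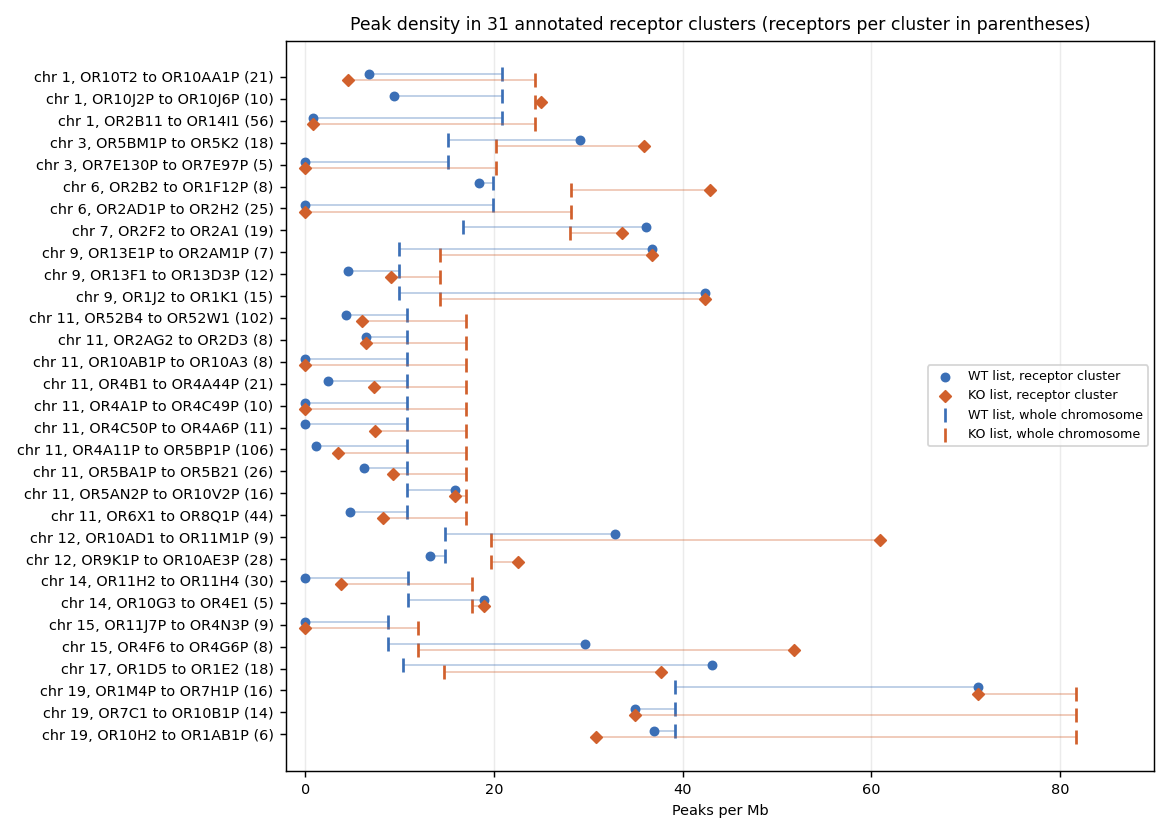
Peaks per Mb (x axis) in 31 annotated receptor clusters, named by their first and last receptor with the number of receptors in parentheses. Circles are the WT list and diamonds the KO list, and vertical ticks give the density of the whole chromosome in the same colours. The chromosome 11 clusters lie left of their ticks in KO, and the chromosome 17 cluster lies right of them in both lists.

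Genes of the olfactory pathway outside the receptor family had peaks as well. Of 20 olfactory signalling genes, 6 had a WT and 8 a KO peak (30% and 40%), where all protein-coding genes had 20.1% and 23%. ADCY3, the adenylyl cyclase of olfactory cilia, had 2 and 1 peaks over 1669 and 2027 bases. ANO2, the calcium-gated chloride channel, had 1 and 6 peaks over 368 and 3083 bases. PDE1C, a phosphodiesterase that breaks down cyclic AMP, had 6 and 10 peaks over 3406 and 4927 bases. GNAL, the G protein of these neurons, and the channel gene CNGA3 had 1 KO peak each and 0 in WT. These are mostly long genes, so their shares cannot be set against those of receptors.

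Of 22 genes known to act on receptor choice or its heterochromatin, 1 had a WT and 5 had a KO peak (4.55% and 22.7%), against the same 20.1% and 23% of protein-coding genes. EBF4, of the Olf1/EBF family, had 2 and 3 peaks over 1984 and 3298 bases. EBF1 had 3 KO peaks, EHMT1 and SETDB1, both H3K9 methyltransferases, had 4 and 3, and LBR of the nuclear envelope had 1, with 0 in WT at all 4 genes.

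Other chemoreceptor families differed in their counts. Of 111 VN1R vomeronasal genes and pseudogenes, 4 (3.60%) had a WT and 20 (18.0%) a KO peak, beside 3.28% and 5.04% of the olfactory receptors. VN1R21P had 2502 bases in WT and 571 in KO, while VN1R88P had 0 and 2363, and 16 of the 20 had a KO peak alone. Of those 16, 15 lie on chromosomes 7 and 19, where olfactory receptors too had their higher KO shares, so the 2 families were not compared at matched positions. Of 35 TAS2R bitter taste entries, 1 and 2 had a peak, and of 9 TAAR trace amine receptors 0 in both lists.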

How the data were processed

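H3K9me3 ChIP-seq of WT and SMARCA3 KO 293T cells was used as 2 deposited peak lists. Reads were aligned with HISAT2 to hg38, per the submitters' processing notes. Neither the labels nor the headers state how peaks were called, whether input entered the call, or how the 3 ChIP libraries per genotype were combined. Per the file headers, the authors gave each peak a fold enrichment, a linear ratio, and a q-value, both of which stay their own values here. Neither column is defined in the files.

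Members and gene lists were chosen with earlier results of these data known. Peaks met where they shared at least 1 bp. Genes were taken from the authors' assignment, and RefSeq (GRCh38.p14) gave gene bodies, promoters and the lengths of annotated genes. The split of members and named genes at 5 kb used the files' spans. All 48 members matched a RefSeq symbol, and each of the 48 overlapped the files' coordinates, so these were used as hg38. Shares have Wilson 95% intervals, and ratios of peaks the same interval of the KO share. They treat peaks as independent. The chromosome density of peaks is over the length up to the last RefSeq gene. The annotated clusters, the short-gene background and the width limit of 350 bp were chosen after seeing the data. Named were all members of groups of 3 or more, the 10 members with the largest difference in bases in each direction, the 5 of highest fold in each list and all protein-coding members, while the others are given by size. Alternatives were another gene assignment, stricter fold or q-value limits (pooled medians), lists of equal length, merging of close peaks and other overlaps. Protein features were not run, since no protein sequences were used here. The overlap code was tested on simulated data. Analysis used Python 3.11.15, pandas 2.3.3, NumPy 2.4.6 and Biopython 1.88.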

Additional observations from a re-analysis of the deposited data

How the results depend on the processing

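Of 44 alternatives, 32 stayed within 1.5 times the count or within the 95% interval of the value above, and 12 did not. A reversed direction, found in 0, could be called only for ratios whose interval lay on 1 side of 1. Those were the ratio of bases at members (1.03 to 2.27) and the pseudogene ratio (1.06 to 3.76). The range for bases is the interval of the peak ratio (0.948 to 2.08), which holds 1, rescaled to the ratio of bases. It leaves out the spread of peak widths and is not a counting interval of bases. Alternatives of the bases ratio were judged by that range. The other ratios had intervals that held 1, so for them a reversal could not be called. By overlap with the RefSeq body, members numbered 13 in WT and 17 in KO, 6 in KO alone and 2 in WT alone, and the annotated share was 2.11% and 2.70%. Files and RefSeq place several bodies differently, as at OR2F1 and OR5AH1P. With only peaks at or above the pooled median fold, members with a KO peak numbered 24, those in KO alone 11, and the KO share was 2.81%. With lists of equal length, members in WT alone numbered 10, beside 16 in KO alone. With overlap of at least 50% of both peaks, 40.5% of WT and 28.8% of KO member peaks were shared. The cause of these shifts was not tested. The ratio of peaks at members ranged from 1.10 with lists of equal length to 1.63 with peaks under 1 kb apart merged. The ratio of bases, 1.53 in the main setting, was 1.07 for bases inside the RefSeq bodies and 1.29 with lists of equal length. It was 1.81 with peaks at or below the pooled median q-value. The gene ratio was 0.941 and the pseudogene ratio 1.71 above the pooled median fold, and 1.04 and 2.07 by the annotated type, all chosen after seeing the data, like the values without OR5AH1P. No paired analysis was possible because the lists hold no column per library. Depth per library is unknown, so a missing peak is not a missing mark.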
